A study of Mus musculus with 3 samples.

Results

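The SR proteins and the heterogeneous nuclear ribonucleoproteins (hnRNPs) are the 2 large families of RNA-binding proteins that bind pre-mRNA and help to decide which exons are kept. Genes were taken by symbol: the Srsf genes, Tra2a and Tra2b, the Hnrnp genes and Ptbp1 to Ptbp3, each with at least 1 transcript annotated as protein_coding. The rule found 36 genes among the 55536 of the annotation, with 338 of its 141767 transcripts. Of these transcripts 159 were protein_coding, 90 retained_intron, 46 nonsense_mediated_decay and 43 processed_transcript, the types that the GENCODE annotation gives.

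Total RNA of F121-9 was sequenced. F121-9 is a mouse embryonic stem (ES) cell line, a hybrid between the Cast and 129 strains. The 3 libraries are labelled as biological replicates 1, 2 and 3 at passage 14, each was made from 400 ng of RNA with ERCC and SIRV spike-ins, and they form 1 group with no treatment or control, so no condition could be compared. All come from 1 line. A p-value for variability therefore describes how far the 3 libraries lie apart, and this distance may be technical; the limma p-values compare a pair of quantifications of the same libraries.

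SR proteins carry an RNA recognition motif and a tail rich in arginine and serine, and mostly favour the use of exons to which they bind. Many hnRNPs coat nascent RNA and often repress splice sites, so the balance of both families shapes which isoforms a cell makes. Genes of both families are known for controlling themselves: they contain "poison" exons or introns whose inclusion places an early stop codon, and such transcripts are targets of nonsense-mediated decay, the pathway that degrades mRNA with a stop codon ahead of an exon junction.

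The RSEM-style gene tables, named for the columns they hold, contained 9765384 to 10610782 estimated counts per library. The SR protein and hnRNP genes held 1.53 ± 0.051% of the gene counts (SD, n = 3). A count of 0 allows up to 3 counts, which is 0.288 to 0.313 CPM (counts scaled to library size); this covers counting error only. The 5 ES cell markers listed (Pou5f1, Sox2, Nanog, Zfp42 and Esrrb) were all expressed, with a summed level of 1713 to 1970 TPM. Of the markers of other cells, 3 of 6 for neurons, 1 of 5 for fibroblasts, 1 of 3 for muscle and 0 of 3 for blood were expressed, with summed levels of 15.6 to 19.1, 2.92 to 4.17, 2.51 to 3.59 and 0.66 to 1.14 TPM; Dcx, Dcn, Myod1 and Ptprc were at 0 in every library.

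Of the 36 genes, 35 were expressed, that is, they reached at least 1 TPM in all libraries (a level scaled by transcript length and library size, so that it can be compared between genes). Among all genes 23.6% were expressed, and among protein-coding genes 11478 of 22028. The median of all 36 SR protein and hnRNP genes, with the 1 not expressed, was 181 TPM, against 19.7 TPM for expressed protein-coding genes. The median percentile of the 35 expressed genes among expressed protein-coding genes was 93.4. At least 100 TPM was reached by 23 of the 36, or 65.7% of those expressed, against 13.8% of expressed protein-coding genes. A level of 500 TPM was reached by 8 of the 36, against 258 of the 11478 expressed protein-coding genes. In bulk RNA, fewer cells expressing a gene and less RNA per cell cannot be told apart.

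**Figure D1:**
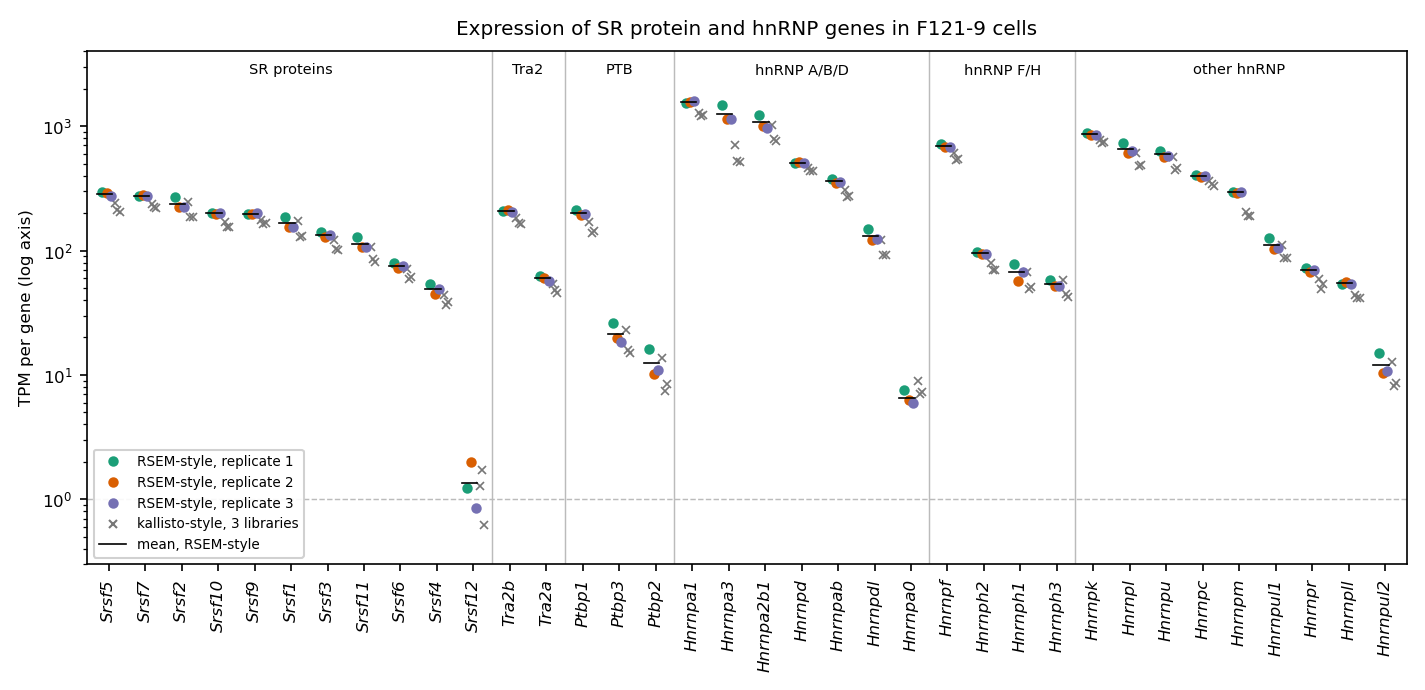
TPM of each SR protein and hnRNP gene on a log axis, grouped by family: filled points are the RSEM-style values of the 3 libraries, the black line is their mean, crosses are the kallisto-style values summed per gene, and the dashed line marks 1 TPM. Levels run from about 1 TPM for Srsf12 to about 1556 TPM for Hnrnpa1, and the crosses of Hnrnpa3 lie furthest below its points.

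Among the 11 SR protein genes the median level was 165 TPM. Srsf5 (chromosome 12, 80945504 to 80950507, plus strand), a splicing activator, was highest with 297, 289 and 272 TPM in replicates 1, 2 and 3. Srsf7, which also serves as an adaptor for mRNA export, lay next at 272, 277 and 275 TPM, and the ranges of Srsf5 and Srsf7 overlapped. Srsf2, a nuclear SR protein that supports exon definition, had 269 TPM in replicate 1 and 224 and 222 TPM in the others. Srsf10, an SR protein that can repress splicing when dephosphorylated, and Srsf9 stood at 200 ± 1.47 and 198 ± 1.60 TPM; their ranges overlapped, with Srsf10 the higher in each library. Srsf1, the best-studied activator of the family, held 186, 154 and 155 TPM, and Srsf3, the smallest SR protein, 134 ± 6.75 TPM. Lower levels were found for Srsf11 (113 ± 12.1), Srsf6 (75.7 ± 3.18) and Srsf4 (49.3 ± 4.80 TPM). Srsf12, a distant member of the family, was the only gene not called expressed, with 1.24, 1.99 and 0.86 TPM from 18, 21 and 9 estimated counts.

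The Tra2 proteins are SR-like activators that bind GA-rich enhancers in exons. Tra2b (chromosome 16, 22244549 to 22266005, minus strand) had 209, 212 and 204 TPM and Tra2a (chromosome 6, 49243924 to 49264033, minus strand) 62.3, 59.8 and 56.8 TPM, so the libraries of the paralogues did not overlap. Of the PTB proteins, which bind pyrimidine tracts and repress exons, Ptbp1 (chromosome 10, 79854427 to 79864771, plus strand) had 211, 193 and 196 TPM. Ptbp3 had 26.2, 19.95 and 18.4 TPM. Ptbp2, the paralogue known from neurons, had 16.02, 10.1 and 10.95 TPM, from 267, 193 and 220 estimated counts. Each Ptbp1 value was above every value of its paralogues, and replicate 1 was highest for all 3 genes.

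The hnRNP A/B/D genes held the highest levels, and the 7 genes together summed to 4887 ± 340 TPM. Hnrnpa1, a shuttling repressor of splice sites (chromosome 15, 103240432 to 103246692, plus strand), led all 36 genes with 1534, 1552 and 1580 TPM. Its relatives Hnrnpa3 and Hnrnpa2b1 followed with 1478, 1148 and 1142 TPM and with 1230, 1007 and 972 TPM; in both, replicate 1 lay above the other libraries, and their ranges overlapped. Hnrnpd, also called AUF1, which binds AU-rich elements and affects mRNA decay, had 505 ± 5.73 TPM. Hnrnpab had 362 ± 14.9 TPM and Hnrnpdl, a paralogue of Hnrnpd, 149, 122 and 125 TPM. Hnrnpa0 was the exception of the group with 7.50, 6.26 and 5.99 TPM.

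The hnRNP F/H proteins bind runs of G. Hnrnpf (chromosome 6, 117900324 to 117925622, plus strand) had 712, 681 and 683 TPM, above every other gene of its group in each library. Hnrnph2 stood at 95.4 ± 2.17 TPM, Hnrnph1 at 77.6, 56.8 and 66.6 TPM and Hnrnph3 at 58.1, 51.7 and 51.6 TPM, and the ranges of Hnrnph1 and Hnrnph3 overlapped.

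Of the remaining hnRNPs, Hnrnpk, a KH-domain protein that binds C-rich RNA (chromosome 13, 58391142 to 58403343, minus strand), was highest with 878, 850 and 844 TPM. Hnrnpl, which binds CA repeats, had 732, 609 and 636 TPM, and Hnrnpu, also called SAF-A, a chromatin-attached scaffold protein (chromosome 1, 178321108 to 178337797, minus strand), had 635, 567 and 580 TPM. Hnrnpc, which binds U tracts on nascent RNA, and Hnrnpm, which binds GU-rich RNA, had 398 ± 4.38 and 294 ± 2.89 TPM. Hnrnpul1, an hnRNP U-like protein, had 127, 104 and 104 TPM, Hnrnpr 69.5 ± 2.43 TPM and Hnrnpll, a paralogue of Hnrnpl, 54.6 ± 1.34 TPM. Hnrnpul2 was lowest with 15.03, 10.4 and 10.8 TPM, and its replicate 1 stood apart from the others.

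A second set of transcript tables, called kallisto-style after their columns, was summed per gene. These tables held 17353084 to 18798954 estimated counts per library. Their levels were 0.464 times the RSEM-style ones for Hnrnpa3 and 1.18 times for Hnrnpa0. For the other 34 genes they were between 0.658 (Hnrnpm) and 0.895 times (Hnrnph3). Lower kallisto-style values were not particular to these genes. Over all 28903 transcripts tested, the median difference in log2(TPM + 1), kallisto-style minus RSEM-style, was -0.228. For the 205 transcripts of these genes it was -0.166. The kallisto-style TPM of Hnrnpa3 was 703, 529 and 515, below its lowest RSEM-style value. Of the 31-base words of its main transcript Hnrnpa3-204, 92.5% occur in transcripts of 54 other genes. The closest of these, the pseudogene Gm5641, holds 88.2% of the words and was at 88.3 TPM in the RSEM-style and 431 TPM in the kallisto-style tables. Hnrnpa3 levels are therefore uncertain. Hnrnpf (69.5%), Hnrnpa1 (54.7%), Hnrnpk (46.2%), Hnrnpc (44.1%) and Ptbp1 (42.3%) also share many such words with other genes. In the RSEM-style tables these other genes summed to 506, 59.65, 87.1, 2.37 and 111 TPM, in the same order. Hnrnph2 (39.0%), Srsf3 (37.6%) and Srsf5 (37.0%) followed, with sums of 67.0, 23.3 and 5.51 TPM. For Srsf4, 66.5% of the words match Gm12992, which lies on the opposite strand, and Hnrnpd, Srsf2 and Hnrnpab share 21.7%, 23.01% and 13.1% with the opposite-strand genes Gm17092, Mettl23 and Phykpl; the strand setting of the counting is not given in the sources used here, so reads of these pairs may not have been told apart.

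No SR protein or hnRNP gene was called as varying between the libraries more than the trend of genes at its level. In the edgeR quasi-likelihood fit, 0 of the 35 genes tested passed an adjusted p of 0.05, against 5 of 13391 genes (0.0373%), and limma-voom also called 0. The lowest adjusted p was 0.61 (Ptbp3), and 7 of the 35 had an unadjusted p under 0.05, against 4.56% of all genes. Spread beyond counting noise, in a chi-square test against Poisson counts, was called for 13 of the 35 (37.1%) and for 12.4% of all genes. High counts favour this call: among genes of at least 20 CPM it was 1486 of 7576, and 13 of 34 for SR protein and hnRNP genes. Without replicate 1, 0 of the 35 genes passed and 1 had an unadjusted p under 0.05, whereas 14 passed without replicate 2 and 13 without replicate 3.

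Replicate 1 lay above the mean of the others in 11 of the 13 called genes and below it in 2. Over all genes the call was made with replicate 1 higher for 843 (6.3%) and with replicate 1 lower for 813 (6.07%). Hnrnpa3 had 1725, 1436 and 1420 CPM, a log2 ratio of 0.27 between replicate 1 and the mean of the others (adjusted p = 1.9e-83, chi-square test with Benjamini-Hochberg adjustment). The test allows for counting noise only, not for error in dividing reads among genes with shared words. As said above, the level of Hnrnpa3 is uncertain. Hnrnpa2b1 had 1219, 1054 and 1014 CPM, and Hnrnpl 927, 841 and 842 CPM. Srsf2 (322, 274 and 276 CPM), Srsf1 (361, 330 and 335 CPM) and Hnrnpul1 (323, 276 and 278 CPM) showed the same order of replicate 1 over the others. The steepest log2 ratios were 0.44 for Hnrnpul2 (53.8, 39.1 and 40.2 CPM) and 0.41 for Ptbp3 (123, 92.7 and 91.99 CPM). Hnrnph1 (97.7, 76.3 and 81.1 CPM), Hnrnpdl (215, 191 and 191 CPM) and Hnrnpu (1634, 1540 and 1540 CPM) complete the set with a higher replicate 1. Hnrnpa1 (1727, 1844 and 1852 CPM) and Hnrnpk (1217, 1272 and 1271 CPM) were lower there. The genes with the least spread were Hnrnph2, Hnrnpab and Hnrnpr, with coefficients of variation of 0.813%, 0.843% and 1.08%, against a median of 3.87% over the 35 genes and 7.0% over all genes. Among genes of at least 20 CPM the median was 3.67% for the 34 SR protein and hnRNP genes and 5.08% for all genes. Replicate 1 had the highest TPM for 28 of the 35 genes, or 80%, and for 49.5% of all expressed genes. By the CPM used above, it lay above the mean of the others for 23 of the 35 genes and for 6590 of 13391 genes.

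**Figure D2:**
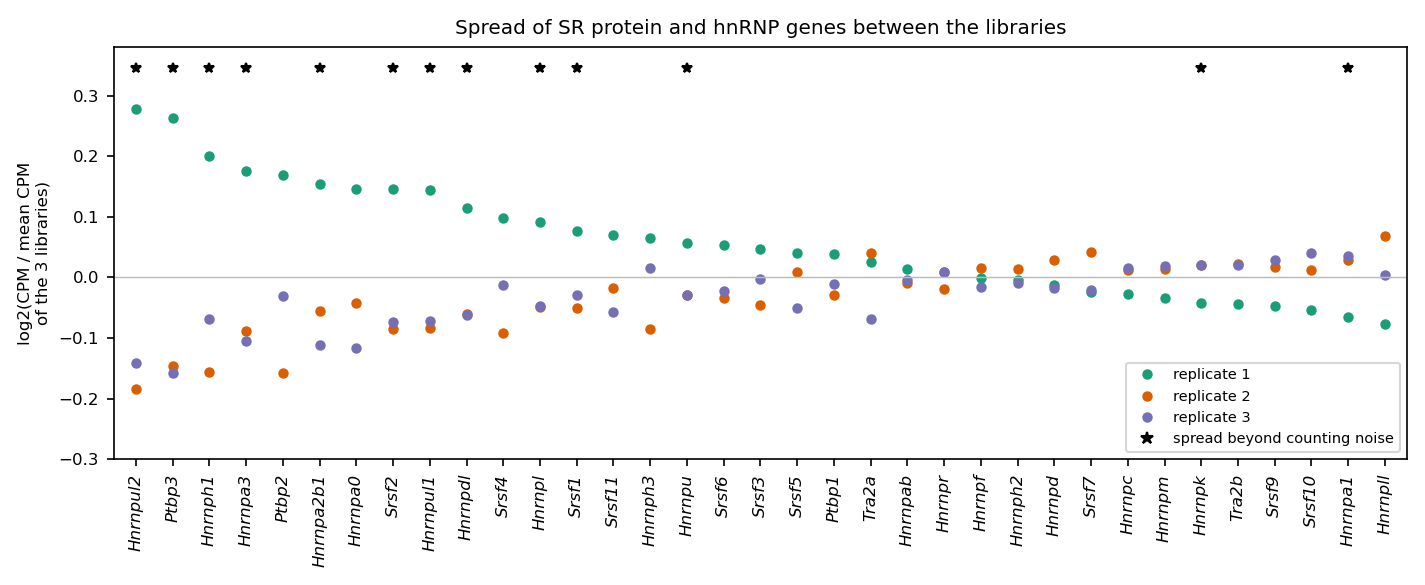
Log2 of each library's CPM over the mean CPM of the 3 libraries for the 35 SR protein and hnRNP genes tested, ordered by replicate 1 against the others; stars mark the 13 genes with spread beyond counting noise. In 11 starred genes replicate 1 lies above replicates 2 and 3, and in Hnrnpk and Hnrnpa1 below both.

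Transcripts annotated as nonsense_mediated_decay (NMD) exist for 24 of the 36 genes, against 20.5% of genes that have a protein-coding transcript, expressed or not. The number of transcripts annotated per gene was not matched in this comparison. The 12 genes without one are Srsf10, Srsf12, Hnrnpa0, Hnrnpa3, Hnrnpab, Hnrnpc, Hnrnpf, Hnrnph1, Hnrnph2, Hnrnpm, Hnrnpul1 and Hnrnpul2. The NMD share of a gene is the TPM of such transcripts as a percentage of the TPM of all its transcripts. In the RSEM-style tables the median share of the 24 genes was 5.61%, against 2.28% over 2789 genes with at least 5 TPM in each library. A share of at least 10% was found for 9 of the 24 genes (37.5%) and for 24.8% of all genes. In the kallisto-style tables the medians were 7.05% and 2.88%, and 10 of the 24 genes (41.7%) were at or above 10%, against 26.9% of 2723 genes.

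The sequences that follow show the exons in which the stop codon of such SR and Tra2 transcripts lies: each is the part of an exon, absent from the gene's most abundant protein-coding transcript, that is read from the exon's first base to its in-frame stop codon. They are GENCODE M21 transcript sequences on GRCm38 (mm10), written in the direction of the gene, and capitals mark the stop codon.
Tra2b-206: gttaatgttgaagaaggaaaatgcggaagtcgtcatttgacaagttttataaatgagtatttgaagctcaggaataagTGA
Tra2a-202: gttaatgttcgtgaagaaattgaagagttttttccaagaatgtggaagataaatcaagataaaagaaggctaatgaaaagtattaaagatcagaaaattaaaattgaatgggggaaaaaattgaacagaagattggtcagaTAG
Srsf6-201: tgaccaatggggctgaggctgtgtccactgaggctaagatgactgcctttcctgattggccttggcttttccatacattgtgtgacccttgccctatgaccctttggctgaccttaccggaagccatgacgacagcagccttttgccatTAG
Srsf3-201: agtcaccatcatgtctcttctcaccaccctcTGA
Srsf7-203: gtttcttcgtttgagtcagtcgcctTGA
The Tra2b piece (chr16:22259181-22259261, minus strand) is 81 bases of exon 2, which is 276 bases long. The Tra2a piece (chr6:49252965-49253108, minus strand) is 144 bases of an exon 2 of 306 bases, and the paralogues share the first 9 bases, gttaatgtt. The Srsf6 piece (chr2:162932815-162932966, plus strand) is 152 bases of exon 3. In Srsf3 (chr17:29039454-29039487, plus strand) and Srsf7 (chr17:80205054-80205081, minus strand) only 34 and 28 bases of exons of 456 and 460 bases come before the end of the stop codon. The Tra2b, Tra2a, Srsf6, Srsf3 and Srsf7 stop codons end 1015, 964, 534, 548 and 699 bases before the last exon junction.

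Tra2b, the Tra2 gene with the higher level, had the second highest NMD share with 33.6, 31.8 and 35.6%. Most of it was Tra2b-206, the transcript with the exon shown, at 63.2, 56.0 and 66.9 TPM beside 107, 107 and 109 TPM of the protein-coding Tra2b-204. Tra2a-202 alone made up the Tra2a share of 18.4, 15.7 and 12.0%, at 11.5, 9.41 and 6.83 TPM. Srsf6-201 gave Srsf6 a share of 17.8, 22.0 and 26.5% (SD of 4.34 percentage points); its stop codon is also annotated in a protein-coding transcript, Srsf6-202, which was at 0 in every library. In Srsf3 the poison exon transcript Srsf3-201 was 5.13 ± 0.792% of the gene and in Srsf7 Srsf7-203 was 2.57 ± 0.572%. Srsf4 had a share of 15.5, 13.4 and 17.8% in 2 transcripts, and its longer one, Srsf4-204, lacks an annotated start of the coding sequence. In Srsf1 the share was 11.4, 15.2 and 11.4%, all in Srsf1-204, 896 bases long and also incomplete at its start. Srsf5, the highest SR gene, had an NMD transcript annotated but at 0 in every RSEM-style library.

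**Figure D3:**
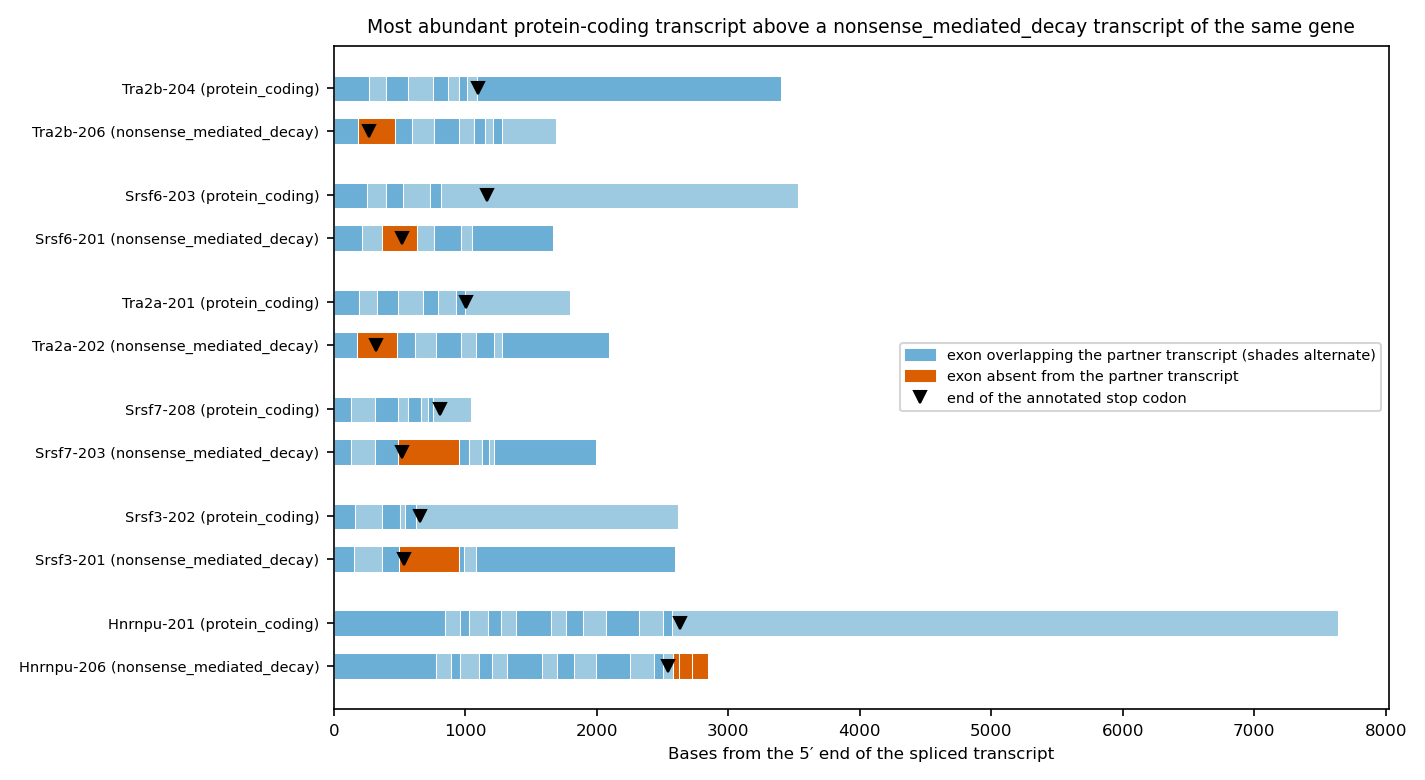
Exons of the most abundant protein-coding transcript and of an NMD transcript of 6 genes, drawn to scale along the spliced transcript from its 5′ end; orange exons are absent from the partner transcript and triangles mark the end of the stop codon. In Tra2b, Tra2a, Srsf6, Srsf3 and Srsf7 the stop lies inside the added exon, and in Hnrnpu-206 it lies before 3 added exons.

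Hnrnpu stood apart with an NMD share of 75.8, 76.7 and 77.3%, at the 99.0th percentile of all genes. It was the only gene of the 36 whose most abundant transcript was not protein_coding. That transcript, Hnrnpu-206, had 478, 433 and 444 TPM, beside 126, 112 and 110 TPM of Hnrnpu-201, the gene's single protein_coding transcript. Hnrnpu-206 is 2844 bases long and tagged as a readthrough transcript, and Hnrnpu-201 is 7640 bases long; 89.5% of the 31-base words of the former occur in the latter. Only 1.92% of the words of Hnrnpu-206 are in no other transcript of the gene. This was not particular to Hnrnpu-206. Of the transcripts shown in letters, Tra2b-206, Srsf6-201, Srsf7-203 and Srsf3-201 had 1.75, 1.71, 2.70 and 0% such words, and Tra2a-202 had 16.2%. Hnrnpu-206 ends in 3 exons of 267 bases in all that are absent from Hnrnpu-201, behind a stop codon that ends 183 bases before the last junction. Hnrnpu-201 ends in a long exon 14, from base 2576 to base 7640. The exon 14 of Hnrnpu-206 that overlaps it has only 71 bases, so most of this long exon also separates the transcripts. In estimated counts, which do not divide by length, the share was 57.0% in place of 76.6%.

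Among the other hnRNPs, Hnrnpdl had an NMD share of 23.5, 25 and 23.8% in 2 transcripts, Hnrnpdl-205 (12.4 ± 0.691%) and Hnrnpdl-201 (11.7 ± 0.455%). Hnrnph3, through Hnrnph3-204, had 13.6, 12.2 and 16.6%. Ptbp2, in which exon skipping is known to trigger decay, had 28.2, 3.16 and 23.6%, with an SD of 13.3 points against a mean of 18.3%. Its main NMD transcript, Ptbp2-206, rested on a mean of 5.75 estimated counts, so the share of Ptbp2 could not be measured closely at this depth. For Hnrnpa1 the share was 7.35 ± 0.581%, but at the level of this gene it corresponds to 114 ± 9.72 TPM of NMD transcripts, the next highest after Hnrnpu with 455 ± 23.9 TPM. Hnrnpd and Hnrnpk had 6.71 ± 0.490% and 6.08 ± 1.27%. Ptbp1, Hnrnpl, Hnrnpa2b1, Srsf9, Ptbp3 and Hnrnpll were all under 1%.

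Of the 46 NMD transcripts, 20 in 16 genes had a mean of at least 5 TPM. In 8 of these 20 the stop codon is also that of a protein-coding transcript, and in 12 it is not. In 8 the exon with the stop is absent from the gene's most abundant protein-coding transcript: Tra2b-206, Tra2b-209, Tra2a-202, Srsf6-201, Srsf7-203, Srsf3-201, Srsf4-204 and Hnrnpl-213. Of these 8, 5 are shown in letters, Tra2b-209 has the same piece as Tra2b-206, and Hnrnpl-213 (5.37 ± 2.68 TPM) is the only transcript of an hnRNP gene.

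**Figure D4:**
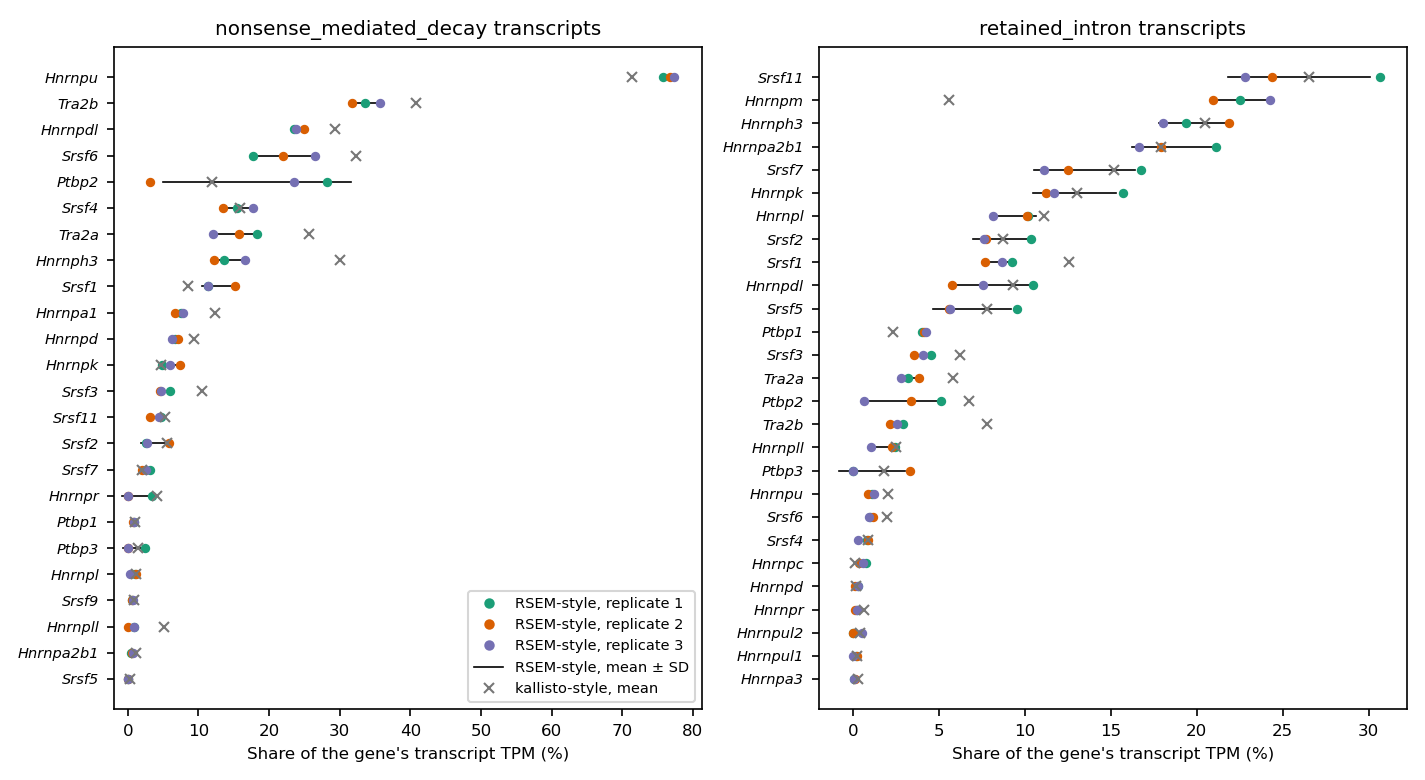
Share of each gene's transcript TPM in NMD transcripts (left, 24 genes) and retained_intron transcripts (right, 27 genes), in percent: points are the RSEM-style libraries, black lines mean ± SD (n = 3) and crosses the kallisto-style mean. Hnrnpu stands apart at about 77% on the left; on the right replicate 1 is often the highest point, and Hnrnpm has its cross far below its points.

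Transcripts annotated as retained_intron exist for 27 of the 36 genes, against 41.6% of genes with a protein-coding transcript, expressed or not. Here too the number of annotated transcripts per gene was not matched. The median share of the 27 genes was 3.29%, against 2.64% over 5708 genes. At least 10% was reached by 6 of the 27 (22.2%) and by 24.1% of all genes, so the share of genes above this limit was near the background. In the kallisto-style tables the medians were 5.79% and 4.18%. In total RNA a read in an intron can also come from unspliced RNA, and the retained_intron shares do not tell such reads apart.

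Srsf11, an SR protein that associates with splice sites through other factors, had the highest retained_intron share with 30.7, 24.4 and 22.8%, spread over many transcripts of which Srsf11-208 held 8.00 ± 1.29%. In Hnrnph3 the share was 19.4, 21.9 and 18.1%, in part in Hnrnph3-206 (5.57 ± 1.52 TPM), which holds intron 4 of the main transcript, 430 bases long. Srsf7 had 16.8, 12.5 and 11.1%, mostly in Srsf7-206 (17.1 ± 4.51 TPM) and Srsf7-207 (14.8 ± 2.50 TPM), and both of these hold intron 3 of the main transcript, 874 bases long. Hnrnpa2b1 had 21.1, 17.9 and 16.6%, which at its level is 260, 180 and 162 TPM. Its 2 main forms were Hnrnpa2b1-208, which holds intron 10 of 156 bases, at 97.5 ± 20.7 TPM, and Hnrnpa2b1-211 at 96.1 ± 28.8 TPM. Hnrnpa2b1-211 holds no intron of the main protein-coding transcript, whole or in part. Hnrnpk had 15.7, 11.3 and 11.7%, Hnrnpl 10.2, 10.1 and 8.15% and Srsf2 10.4, 7.73 and 7.61%, the last in Srsf2-203 with an intron of 1059 bases. Hnrnpm had 22.5, 20.9 and 24.3%, nearly all in Hnrnpm-213, a form of 591 bases. In estimated counts the retained_intron share was lower for Srsf11 (20.1%), Hnrnpa2b1 (13.5%), Hnrnph3 (7.23%), Hnrnpl (5.75%), Hnrnpm (5.02%) and Hnrnpk (4.2%). For Srsf7 (16.0%) and Srsf2 (8.46%) it stayed within the SD of the share in TPM. Of 25 retained_intron transcripts of at least 5 TPM, 11 hold 1 whole intron of the main protein-coding transcript and 12 only a part of an intron.

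Over all 36 genes, retained_intron transcripts took 6.47, 5.18 and 5.00% of the TPM and NMD transcripts 7.61, 7.85 and 7.97%. The retained_intron share was highest in replicate 1 for 16 of the 27 genes (59.3%), and for 45.6% of all genes. The median over all genes was also highest there, with 2.81, 2.31 and 2.17%.

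The most abundant isoform was the same in both sets of tables for 32 of the 34 expressed genes with several transcripts (94.1%), against 87.7% of 10919 genes. The exceptions were Hnrnph3, where Hnrnph3-201 led in the RSEM-style and the NMD transcript Hnrnph3-204 in the kallisto-style tables, and Hnrnpll, where Hnrnpll-205 and Hnrnpll-201 are close (49.3 and 48.1% in the RSEM-style tables). The main isoform held at least 50% of the TPM in 24 of the 36 genes, and the median gene had 2 isoforms of at least 10%. Hnrnph3 had 5 such isoforms, the most of any.

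Several genes divided their TPM between isoforms, mostly protein-coding ones; the genes of this paragraph were chosen after their values were seen. Hnrnpab was split between Hnrnpab-203 (54.01 ± 1.53%) and Hnrnpab-201 (44.3 ± 0.575%). Hnrnpa2b1 had 45.6 ± 1.34% in Hnrnpa2b1-204, 15.3 ± 0.823% in Hnrnpa2b1-203 and 11.1 ± 0.225% in Hnrnpa2b1-201. For Hnrnpc, 44.99 ± 0.465% lay in Hnrnpc-207 and 26.5 ± 0.992% in Hnrnpc-211, and for Srsf1, 39.5 ± 1.25% lay in Srsf1-201 and 27.9 ± 2.68% in Srsf1-205, a form of 5362 bases. Srsf10 had 44.9 ± 2.30% in Srsf10-204 and 18.8 ± 1.64% in Srsf10-207, a processed_transcript of 717 bases. In each of these genes the difference between the shares was larger than their SDs.

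Between the tables of the same library, 30 of 205 transcripts of these genes differed by at least 1 in log2(TPM + 1) with an adjusted p under 0.05 in limma. They lay in 20 genes. Of the 30, 18 were higher in the RSEM-style tables (8.78%, against 6.78% of all 28903 transcripts tested) and 12 in the kallisto-style tables (5.85%, against 12.1%). Such differences are of quantification, not of biology, and on this scale they understate the change of low transcripts.

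Of the 18 with higher RSEM-style values 12 were protein_coding. The largest difference was that of Hnrnpk-209, a retained_intron transcript, at 44.1, 32.3 and 29.0 TPM in the RSEM-style tables and listed at 0 in the others (log2 difference -5.15, adjusted p = 0.00062 in limma). It was followed by Hnrnpl-212 (23.6, 18.8 and 19.2 TPM against under 0.001), Hnrnpl-202 (6.86, 8.88 and 12.8 TPM), Ptbp1-206 and Hnrnpl-204. Ptbp1-206, a protein-coding form of 3169 bases, had 53.97, 61.4 and 65.95 TPM against 6.25, 3.72 and 6.34 TPM, which is 30.3% of Ptbp1 in one set and 3.62% in the other. In the opposite direction Hnrnpd-202 was listed at 0 in the RSEM-style tables and had 67.7, 64.2 and 53.6 TPM in the kallisto-style ones (log2 difference 5.97, adjusted p = 0.00031 in limma). Hnrnpl-206, also listed at 0, had 19.3, 14.2 and 14.2 TPM. Hnrnpu-209, an NMD transcript of 351 bases, had 1.38, 0.88 and 2.92 TPM against 46.8, 21.5 and 32.4 TPM, Tra2b-208 0.48 ± 0.090 against 9.11 ± 0.990 TPM, and Hnrnpab-202 3.32, 9.58 and 5.05 against 39.2, 38.8 and 33.5 TPM. Of the 30 transcripts, 3 were listed at 0 in every RSEM-style library and 1 in every kallisto-style library.

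**Figure D5:**
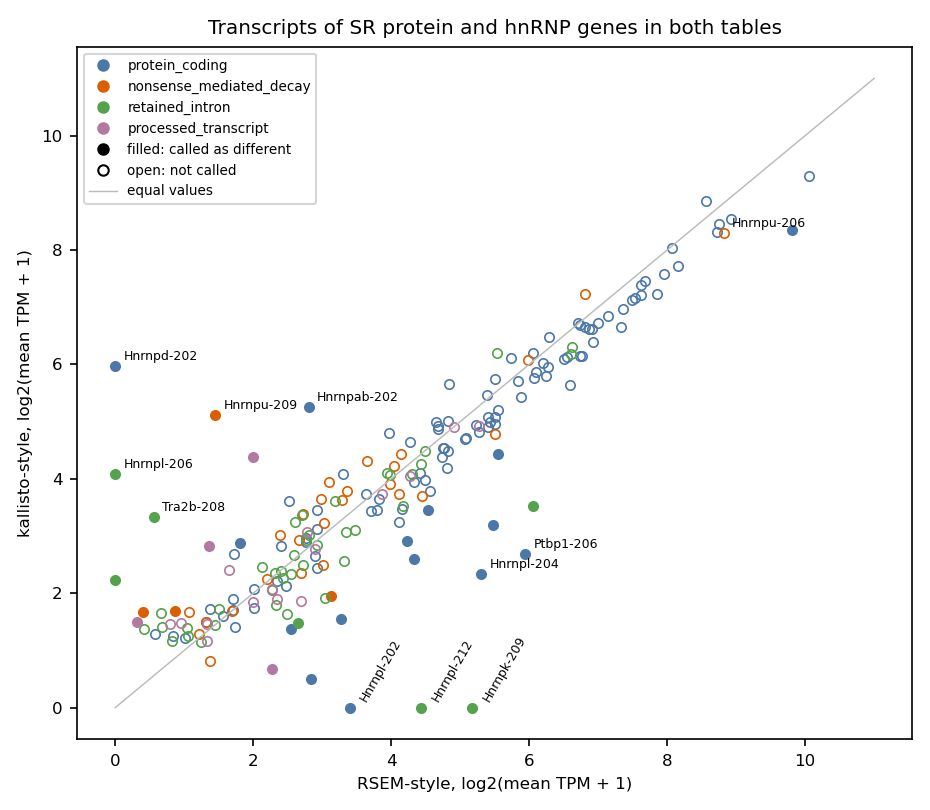
Mean TPM of the 205 transcripts tested, as log2(TPM + 1), in the RSEM-style tables (x) and kallisto-style tables (y), coloured by annotated type; filled points are the 30 transcripts called as different and the line marks equal values. Hnrnpd-202 and Hnrnpl-206 lie on the y axis at 0 RSEM-style TPM, and Hnrnpk-209 on the x axis.

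The NMD share differed between the tables for 6 of the 24 genes by at least 5 percentage points and an adjusted p under 0.05 in limma. For 5 genes the kallisto-style share was the higher (20.8%, with 3.8% among 2681 genes), and for Hnrnpu the RSEM-style share was (4.17%, with 2.01% among all). The kallisto-style mean was 30.1% for Hnrnph3 (15.9 points higher), 32.3% for Srsf6 (10.2), 25.6% for Tra2a (10.2), 29.4% for Hnrnpdl (5.32) and 10.6% for Srsf3 (5.42), and 71.4% for Hnrnpu (5.22 points lower). Tra2b at 40.8% missed the threshold (adjusted p = 0.088 in limma). With any 1 library left out, 0 genes of the 24 passed in limma, while 5 to 7 met the minimum difference with an unadjusted p under 0.05. The retained_intron share differed for 2 of the 27 genes: the kallisto-style share of Tra2b was 5.26 points higher (1 of 27, or 3.7%, with 9.02% among 5487 genes), and that of Hnrnpm was 17.0 points lower, at 5.58% (3.7%, with 2.9% among all). Again 0 of the 27 passed in limma with any 1 library left out, while 2 met the minimum difference with an unadjusted p under 0.05.

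The other genes of splicing control and of decay were taken from lists. Of 8 kinases and import factors of SR proteins, 7 were expressed; Tnpo3, the import receptor of SR proteins, had 79.6, 76.5 and 86.6 TPM and Srpk1, the main cytoplasmic SR protein kinase, 81.9, 72.1 and 80.3 TPM, while Srpk3 had 0.32 ± 0.139 TPM. All 10 NMD factors were expressed at 11.4 (Smg8) to 62.5 TPM (Upf1, the central helicase of the pathway), as were all 11 hnRNP proteins with other symbols and all 12 SR-related proteins. Spread beyond counting noise was called for 1 of 7, 4 of 10, 8 of 11 and 7 of 12 of these genes, of which 1, 4, 7 and 7 were higher in replicate 1, and edgeR called 0 of them variable, with 0, 0, 4 and 4 at an unadjusted p under 0.05. Over all genes the noise call was made for 12.4%, and 843 of the 1656 called genes were higher in replicate 1. An NMD share of at least 10% was found for 24.8% of all genes with an annotated NMD transcript and enough expression to be measured. Among the kinases and import factors it was found for 4 of 7: Srpk2 (58.9 ± 1.58%), Clk1 (45.1 ± 15.9%), Clk3 (19.8 ± 5.51%) and Clk4 (13.4 ± 5.88%). The Clk proteins are nuclear kinases of SR proteins. Of the 3 hnRNP proteins with other symbols for which the share could be measured, Tardbp, which binds UG repeats, had 46.7 ± 2.54%, Rbmx 81.1 ± 4.29% and Syncrip was listed at 0 in every library. Of 3 NMD factors 1 reached 10%, Smg6 with 20.02 ± 5.57%, and the median was 0.947%. Of 10 SR-related proteins 1 reached 10%, Luc7l with 13.7 ± 1.58%, and the median was 2.07%.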

How the data were processed

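Each of the 3 libraries has a gene table and a pair of transcript tables, built on mm10 with GENCODE M21 per the notes deposited with them. The gene table and the RSEM-style transcript table were made from transcriptome alignments and the kallisto-style table from the reads, per the same notes, with quantifier, aligner, versions and use of strand not given in the sources used here. Deposited expected counts (estimated counts) are not normalized, and the deposited TPM sum to one total per library. The 96 ERCC rows and 26249 rows that name no gene (0.000147% of counts) stayed out of library sizes and tests. All genes matched the annotation; 86 had no kallisto-style transcript row.

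Counts were rounded. Variability was tested with edgeR 4.0.16 (R 4.3.3; filterByExpr, TMM, intercept-only quasi-likelihood fit, dispersion against the trended prior), noise with a chi-square test against Poisson (2 degrees of freedom), and table differences with limma 3.58.1, all with Benjamini-Hochberg adjustment at 0.05 over all features. Other values came from Python 3.11.15, numpy 2.4.6, pandas 2.3.3, scipy 1.17.1 and matplotlib 3.10.9. The scripts were tested on simulated data. Genes and lists were chosen with earlier results of these data known. Values in every library are given for the highest and lowest gene of each role group, for genes a test called, and for the 8 highest shares of each type; transcripts named are the main, NMD and retained_intron ones of these genes and the 5 largest differences in each direction. Thresholds, scalings, pseudocount and libraries were varied.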

Additional observations from a re-analysis of the deposited data

How the results depend on the processing

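The number of genes expressed (35 or 36) and the count of 0 variable genes were kept under all alternatives run for them, including ERCC scaling, DESeq2 size factors and each library left out. With kallisto-style tables the median expression was 147 TPM, 20 genes were beyond counting noise, and the median NMD and retained_intron shares were 7.05% and 5.79%. As shares of estimated counts these medians were 3.34% and 2.11%, and 1 gene differed between tables in its retained_intron share. With at least 20 TPM the median retained_intron share was 4.09%, and with at least 1 TPM 3 genes differed in the NMD share. With no minimum difference 123 transcripts and 7 retained_intron shares differed. With a library left out, genes beyond counting noise numbered 0 to 14, the median NMD share was 5.42 to 5.72% and the median retained_intron share 3.00 to 4.04%. Share differences then numbered 0 in each case, for both types, in fits that hold fewer samples. The cause of these changes, and of the others, was not tested. Counting noise calls of the 13 genes held under 5 of the 6 alternatives and were lost without replicate 1. The comparison of the tables is paired by library; no paired analysis between groups was possible because there is 1 group. Depth limits low genes such as Srsf12 and shares such as that of Ptbp2.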
